A study of Mus musculus with 46 samples.

Results

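The comparison described here set 6 C57BL/6J mice in nicotine withdrawal against 6 C57BL/6J saline mice, chosen by their sample titles, 12 of the 46 arrays of the series. All were males from which the nucleus accumbens, the ventral part of the striatum and a hub of reward circuits, was dissected and frozen. Each withdrawal nicotine mouse had carried a subcutaneous osmotic minipump for 14 days, which released nicotine at 24 mg per kg per day. The saline mice had carried a pump with saline alone for the same time. In both groups the pump was taken out by surgery 24 hours before death, so the operation and the day without a pump were common to nicotine and saline mice. The other groups of the series used beside it were C57BL/6J mice killed with the pump in place, called chronic (5 nicotine, 6 saline), and DBA/2J mice after pump removal (5 nicotine, 6 saline). The question was which transcripts of the accumbens differ a day after nicotine delivery ends. C57BL/6J and DBA/2J are inbred strains. The labels state no ages. No label gives a withdrawal sign, a nicotine level, a cage number, a date or a batch for any mouse, so exposure and batch could not be checked.

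Nicotine acts on nicotinic acetylcholine receptors, ion channels built from alpha and beta subunits that acetylcholine normally opens. In the accumbens they sit largely on the endings of dopamine axons from the midbrain, while most of the local neurons are spiny projection neurons that carry the dopamine receptors Drd1 or Drd2. In rodents, ending a long exposure brings physical and affective withdrawal signs, and dopamine release in the accumbens is known to drop. Known transcriptional readouts of such states include the immediate early genes, switched on within minutes of neuronal activity, the opioid and stress peptides, and glucocorticoid targets.

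RNA of each mouse was hybridised to 1 Affymetrix MTA 1.0 array, whose deposited values are in log2 units. A difference of 1 is a change of 2-fold in signal, and all differences below are nicotine minus saline on that scale. Array medians ran from 6.30 to 6.43 over the 12 arrays, and each array correlated with the mean of the rest of its group at 0.996 to 0.998. Nicotine mouse 1 and saline mouse 6 lay farthest from the rest of their groups, with an SD of the difference over features of 0.257 and 0.237, against 0.197 for the closest mouse. Markers of spiny neurons were present: all 16 members of that list with per-array values lay above the array median on all 12 arrays. By the same measure 0 of 4 hypothalamic neuropeptide genes did. This check does not tell the accumbens from the rest of the striatum. Markers of cortical excitatory neurons were present too, 10 of 11 lying above the median on all 12 arrays.

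No gene separated the groups at the threshold. Of 9589 genes tested with limma, 0 passed a Benjamini-Hochberg adjusted p of 0.05 (0.0%), and the lowest adjusted p was 0.9999. At an unadjusted p under 0.05 there were 286 genes (2.98%), 108 higher (1.13%) and 178 lower (1.86%) in withdrawal, where an even spread of p-values would put 479.5. The balance of the directions depended on scaling and on single mice: 60 were higher and 460 lower with quantile normalization and 69 higher and 381 lower with cyclic loess, while 201 were higher and 189 lower without saline mouse 6. Without nicotine mouse 1 the counts were 183 and 181. The difference of the median gene was -0.0051, the middle 50% of the genes lay between -0.05 and 0.04, and the SD across genes was 0.086. Within a group, the median gene had an SD of 0.115 over the nicotine mice and 0.108 over the saline mice. The 95% interval of the difference lay inside 0.5 either way (1.41-fold) for 96.9% of genes. For those genes a larger change lay outside the interval. In simulated data with the spread of these arrays but noise drawn independently for each gene, 50.4% of changes of 1.19-fold were recovered. There 5.04% of unchanged genes had an unadjusted limma p under 0.05, unlike the 2.98% seen here. Recovery in the real arrays may therefore differ.

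**Figure D1:**
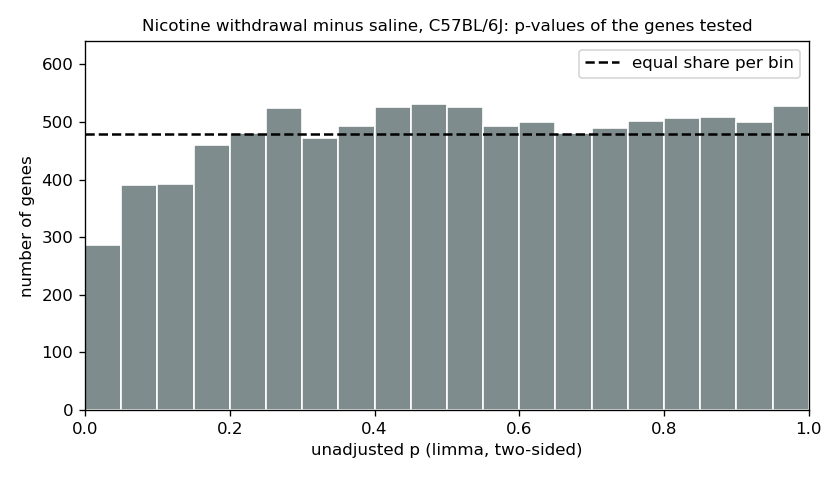
Number of genes (vertical axis) by unadjusted two-sided limma p (horizontal axis, bins of 0.05) for nicotine withdrawal minus saline in C57BL/6J, 9589 genes. The bin below 0.05 holds 286 genes, under the dashed line at 479.5 that an equal share per bin would give.

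The lowest p among genes with lower values belonged to Macroh2a3 on chromosome 15. Its log2 values in nicotine mice 1 to 6 were 6.40, 6.40, 6.35, 6.34, 6.41 and 6.41, and in saline mice 1 to 6 they were 6.73, 6.62, 6.66, 6.44, 6.71 and 6.79. Every nicotine mouse lay below every saline mouse, at a level near the array median, with a difference of -0.27 (SE 0.07, unadjusted p = 0.000517, adjusted p = 0.9999, limma). Groups that did not overlap at all were seen for 15 genes (0.156%), 3 higher (0.0313%) and 12 lower (0.125%). Random labels on 6 against 6 mice would separate a gene fully with probability 0.00216 (exact, two-sided), so this share was no excess. The higher ones were Vmn2r33, a vomeronasal receptor gene, Egln2, a prolyl hydroxylase of the oxygen-sensing pathway, and Hnrnph1, a splicing factor. Among the lower ones were Msrb3, which repairs oxidised methionine, Derl1, a channel component for removal of misfolded proteins from the endoplasmic reticulum, and Reep4, which shapes that membrane. These 6 genes were picked from the 15 after their values were seen, and their differences ran from -0.16 for Reep4 to 0.15 for Vmn2r33. Some gaps were very small: Hnrnph1 had 12.9987 as its lowest nicotine value and 12.9981 as its highest saline value. For Msrb3 the highest nicotine and the lowest saline value were both 8.0662 after rounding.

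The other lower genes with the smallest p had differences from -0.15 to -0.38. Snx33, a sorting nexin of membrane uptake on chromosome 9, had a range of 6.21 to 6.64 (median 6.39) in nicotine mice and 6.40 to 6.92 (median 6.77) in saline mice, a difference of -0.30 (SE 0.09). Its nicotine values lay near the array medians (6.30 to 6.43). Nipal4, a magnesium transporter family member on chromosome 11, stood at -0.26 (SE 0.07), and Mrm3, a methyltransferase of mitochondrial ribosomal RNA, at -0.22 (SE 0.06). Tspan15, a tetraspanin that guides the shedding protease ADAM10, ranged from 8.12 to 8.35 in nicotine mice and from 8.31 to 8.53 in saline mice, and differed by -0.20 (SE 0.06). The highest nicotine mouse of Snx33 and of Tspan15 thus reached into the saline range. Spcs2, a subunit of the signal peptidase, stood at 11.2 ± 0.09 in nicotine mice and 11.4 ± 0.06 in saline mice (SD, n = 6 each).

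Of the 10 higher genes with the smallest p, Olfr1321 and Olfr690 are odorant receptor genes and Vmn2r44 a vomeronasal receptor gene, families with many similar copies. Ighv2-9-1, an immunoglobulin variable segment, had the largest difference, 0.45 (SE 0.15), with 7.30 to 7.86 in nicotine mice and 6.61 to 7.57 in saline mice. Sry, the testis-determining gene on the Y chromosome, stood at 9.56 ± 0.18 against 9.28 ± 0.12 (SD, n = 6 each), and 6 of 6 nicotine mice lay above the saline mean. COX1, the mitochondrially encoded subunit of cytochrome oxidase, read 19.2 ± 0.11 against 19.1 ± 0.05, where the highest value in the table is 19.9. The zinc finger gene Zfp827 on chromosome 8 ranged from 10.90 to 11.08 in nicotine mice and from 10.75 to 10.94 in saline mice, a difference of 0.14 (SE 0.06). All 20 genes had a limma adjusted p of 0.9999. They were chosen by the p of this same difference, so agreement between mice of a group follows largely from the choice.

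**Figure D2:**
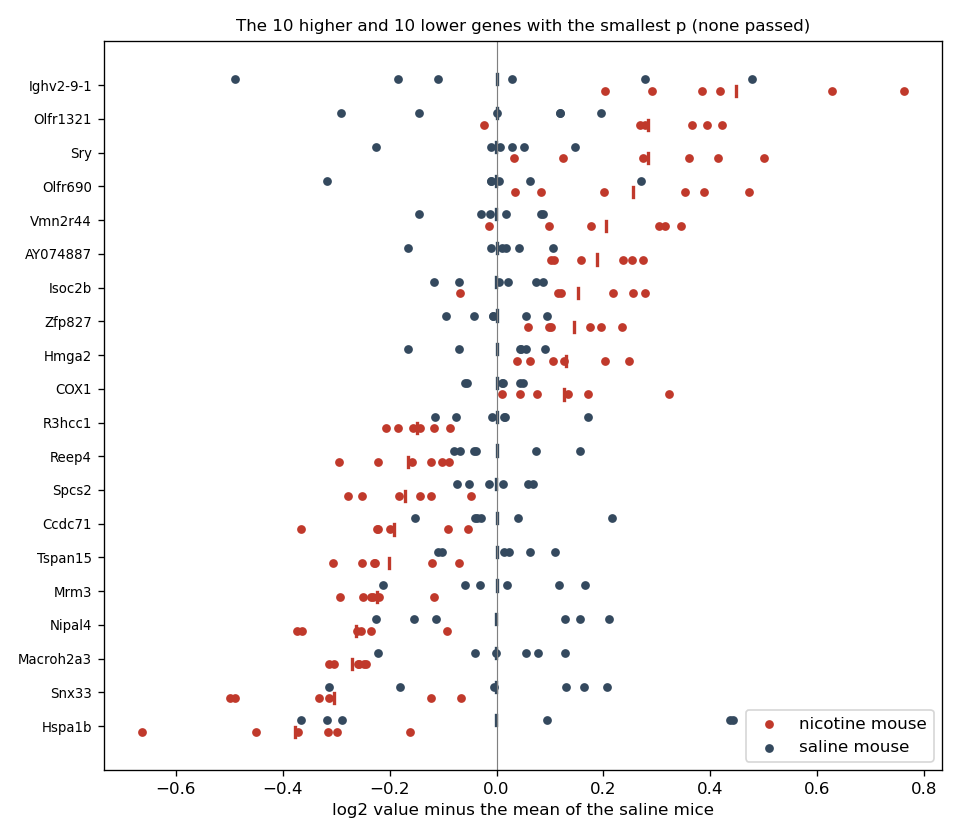
The 10 higher and 10 lower genes with the smallest p (vertical axis); the horizontal axis gives each mouse's log2 value minus the mean of the saline mice, points are mice (6 nicotine, 6 saline) and short lines are group means. Macroh2a3 and Reep4 alone among the 20 have no overlap between groups, and none of the 20 passed the adjusted threshold.

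Of 18 genes with an established place in nicotine research, 7 could be tested on the arrays, 5 higher and 2 lower, and 0 passed. Chrna7, which forms the homomeric alpha7 receptor and was the 1 nicotinic subunit gene of 10 with per-array values to pass the filter on low signal, had values of 9.68, 9.73, 9.52, 9.55, 9.80 and 9.69 in nicotine mice 1 to 6. In saline mice 1 to 6 it had 9.78, 9.47, 9.91, 9.77, 9.68 and 9.76. The difference was -0.06 (SE 0.07, limma unadjusted p = 0.375), and the groups overlapped widely. Chrna5, Chrna6 and Chrnb3, subunits that join the receptors of dopamine axons, had means of 5.80, 4.59 and 5.33 in nicotine mice and 5.83, 4.54 and 5.36 in saline mice, below the filter. The 6 tested chaperones and Ly6 modulators of nicotinic receptors had a median of -0.06, 1 higher and 5 lower. The lowest p among them belonged to Ly6g6e at -0.18 (SE 0.11), and Lynx1, a membrane-bound brake on the receptors, stood at -0.09 (SE 0.11).

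Dopamine receptor genes lay above the array median in all 12 mice. Drd1, the receptor of the direct-pathway spiny neurons, had values of 12.80, 12.72, 12.70, 12.95, 12.77 and 12.54 in nicotine mice 1 to 6 and 12.56, 12.78, 12.24, 12.22, 12.72 and 12.64 in saline mice 1 to 6. All 6 nicotine mice lay above the saline mean of 12.53, saline mice 3 and 4 were the lowest of the 12, and the other 4 saline mice lay within the nicotine range. The difference was 0.22 (SE 0.14, limma unadjusted p = 0.113). Drd2, the receptor of the indirect pathway, stood at 0.16 (SE 0.14) and Drd3, enriched in the accumbens, at 0.12 (SE 0.19), with nicotine mouse 6 lowest of all 12 for Drd3 at 8.48. Of 7 tested genes for making, moving and breaking down dopamine, 2 were higher and 5 lower, with a median of -0.03. Among them Maob, the monoamine oxidase of glia, ranged from 9.72 to 10.33 in nicotine mice and 9.94 to 10.58 in saline mice, a difference of -0.30 (SE 0.11, limma unadjusted p = 0.0125). The opioid receptor gene Oprm1 differed by 0.0074 (SE 0.11).

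Genes of chromosomes 1 to 6 have almost no per-array values among the data used here and were read through the authors' S-scores. An S-score is a signed, standardised difference of 1 nicotine mouse from the saline mice of its strain and phase, not a fold change, and all 6 scores share 1 saline reference. The scores come from the same arrays, so they are not independent of the values above. Of 25822 genes, 0 passed the limma test (0.0%), with a lowest adjusted p of 0.3492, and 759 had an unadjusted p under 0.05 (2.94%), 244 higher and 515 lower. Chrna4 and Chrnb2, which together form the main high-affinity nicotine receptor of the brain, had mean scores of -1.01 (range -2.70 to 1.20) and 0.09 (range -0.84 to 1.06). The opioid precursors Penk and Pdyn had 0.20 (range -2.95 to 1.59) and -0.14 (range -5.31 to 3.45), and the dynorphin receptor gene Oprk1 had 0.58. Bdnf, a neurotrophin, had 0.45, Crh, the stress peptide, 0.44, and Npy -0.03. Scores of both signs occurred for each of these 8 genes, and the limma adjusted p was 0.9997 for each.

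Of genes read only by S-score, those with the smallest p are given here, and none passed. They were chosen by the p of these same scores, which share 1 saline reference. Agreement in sign between mice therefore follows largely from the choice. Mc3r, a melanocortin receptor gene, had a mean of 1.05 with 6 of 6 scores above 0, from 0.61 to 1.65, and Plekhn1 had 1.27, from 0.33 to 2.01. On the lower side Tmem150c had -1.63, from -3.34 to -0.47, Cav2, a caveolar coat protein, -1.26, and Ube2j2, a ubiquitin-conjugating enzyme of the endoplasmic reticulum, -0.90, each with 6 of 6 scores below 0. Their limma adjusted p was 0.9997.

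Gene groups were described by their tested members and by their mean in each mouse, given as a deviation from the mean of the 12 mice. Mean S-scores, which take in members without tested array values, were above 0 for 12610 genes and below 0 for 13212. They were above 0 for 3 of 19 cortical, 17 of 20 spiny neuron and 1 of 20 oligodendrocyte members. For astrocyte and red cell genes these counts were 3 of 18 and 6 of 6. Because these are bulk samples, fewer cells of a type and less RNA per cell cannot be told apart. Marker genes of cortical excitatory neurons were lower in all 10 tested members, with a median of -0.19 and none passing (over all genes tested, 4501 were higher and 5088 lower, median -0.0051). Slc17a7, the vesicular glutamate transporter of cortical neurons, had values of 12.51, 13.44, 12.41, 12.83, 12.82 and 13.49 in nicotine mice 1 to 6, and 13.19, 12.63, 13.53, 13.64, 13.07 and 13.35 in saline mice 1 to 6. It stood at -0.32 (SE 0.32), with nicotine mice 2 and 6 among the high values and saline mouse 2 among the low ones. By mouse the list's mean was -0.47, 0.32, -0.24, -0.29, -0.21 and 0.37 in nicotine mice 1 to 6 and 0.15, -0.30, 0.26, 0.30, -0.00 and 0.12 in saline mice 1 to 6. Both groups therefore spanned nearly the whole range. Without nicotine mouse 1 the median of the list was -0.09, and over all fits without 1 mouse it ran from -0.28 to -0.09.

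Spiny projection neuron genes were mostly higher. Of 16 tested members 15 were higher and 1 lower, with a median of 0.15 and none passing. Pde10a, the phosphodiesterase of spiny neurons, stood at 14.8 ± 0.17 in nicotine mice and 14.6 ± 0.15 in saline mice (SD, n = 6 each). Adcy5, the adenylyl cyclase that dopamine receptors act on, stood at 14.8 ± 0.19 and 14.6 ± 0.19. Bcl11b, a transcription factor of these neurons, ranged from 12.75 to 13.11 in nicotine mice and from 12.64 to 12.87 in saline mice, and differed by 0.15 (SE 0.07, limma unadjusted p = 0.0496). The list's mean was -0.07, 0.04, 0.15, 0.26, 0.10 and -0.07 in nicotine mice 1 to 6 and -0.09, 0.09, -0.26, -0.20, 0.08 and -0.03 in saline mice 1 to 6. Nicotine mouse 4 and saline mouse 2 were high in this list and low in the cortical one, saline mice 3 and 4 were low here and high there, and nicotine mouse 1 was below 0 in both. With the cortical list's mean as a covariate, the spiny median was 0.07. With that covariate the median was -0.076 for astrocyte genes (-0.081 without it) and -0.077 for endothelial genes (-0.094 without it). For interneuron genes it was -0.12 (-0.18 without it). Whether the content of cortical tissue has a part in the other lists was not tested beyond such covariate values.

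Oligodendrocyte genes were lower in 13 of 14 tested members, with a median of -0.12. Mog, a surface protein of myelin, ranged from 9.89 to 10.31 (median 10.1) in nicotine mice and from 10.08 to 10.64 (median 10.4) in saline mice, a difference of -0.28 (SE 0.13, limma unadjusted p = 0.0374). The list's mean lay below 0 in nicotine mice 1, 3 and 4 and in saline mice 2 and 5. With the cortical list's mean as a covariate the median was -0.09.

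Astrocyte genes were lower in 11 of 14, with a median of -0.08. It was -0.05 without nicotine mouse 1, and ran from -0.09 to -0.05 over all fits without 1 mouse. Gfap, the astrocyte filament protein, ranged from 8.41 to 9.30 in nicotine mice and 8.92 to 9.78 in saline mice, a difference of -0.41 (SE 0.25). Endothelial genes were lower in 7 of 7 tested members, with a median of -0.09 (-0.06 to -0.13 without 1 mouse), led by the tight junction gene Cldn5 at -0.22 (SE 0.14). By S-score, 5 of the 18 members of the endothelial list were higher and 13 lower. The mean of this list lay between -0.15 and 0.09 in nicotine mice and between 0.02 and 0.08 in saline mice. Nicotine mouse 2 was the highest of all mice, and the other nicotine mice lay below every saline mouse. Microglial genes were near 0, 7 higher and 3 lower, with a median of 0.01. The interferon response list was lower in all 10 tested members with a median of -0.09, while by S-score 6 of its 21 members were higher and 15 lower. Its mean lay below the saline mean in all 6 nicotine mice, and saline mouse 5 alone reached into the nicotine range. Interneuron genes were lower in 4 of 5, with a median of -0.18, among them Vip, a peptide of cortical interneurons, at 7.34 ± 0.21 against 7.74 ± 0.14 (SD, n = 6 each). By S-score, 6 of the 13 interneuron genes were higher and 7 lower, with a median score of -0.03. The list's mean was lowest in nicotine mouse 3 (-0.32) and highest in saline mouse 3 (0.37). Its median was -0.10 without saline mouse 3, -0.24 without saline mouse 2, and -0.05 over the members above the 75th percentile. Vip differed by -0.39 (SE 0.22), and its highest nicotine mouse met the lowest saline mouse at 7.63.

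Cholinergic genes were higher in 6 of 8 tested members, with a median of 0.10. It was 0.04 without nicotine mouse 1, 0.16 without nicotine mouse 6 and 0.02 with the cortical list's mean as a covariate. By S-score, 8 of the 15 cholinergic genes were higher and 7 lower, with a median score of 0.14. Isl1, a transcription factor of cholinergic interneurons and of striatal spiny neurons, stood at 8.53 ± 0.40 against 8.19 ± 0.37, and Slc18a3, which loads acetylcholine into vesicles, at 6.36 ± 0.19 against 6.22 ± 0.25 (SD, n = 6 each). Slc18a3 thus lay near or below the array medians (6.30 to 6.43). Genes of red blood cells were higher in 4 of 4, with a median of 0.25. Hba-a1, an alpha globin gene, had values of 14.37, 13.88, 13.68, 14.33, 13.65 and 13.56 in nicotine mice 1 to 6 and 13.55, 13.46, 13.95, 13.19, 14.33 and 13.13 in saline mice 1 to 6. Nicotine mice 1 and 4 and saline mouse 5 were the high ones. Alas2, the haem synthesis enzyme of red cells, ranged from 7.06 to 7.60 against 6.86 to 7.25, a difference of 0.22 (SE 0.11). Globin genes have near-identical copies, so the values of Hba-a1, Hbb-bs (0.21) and Hbb-bt (0.28) may share signal. Without nicotine mouse 1 and saline mouse 6, left out together after their values were seen, the median of the red cell list was 0.10.

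**Figure D3:**
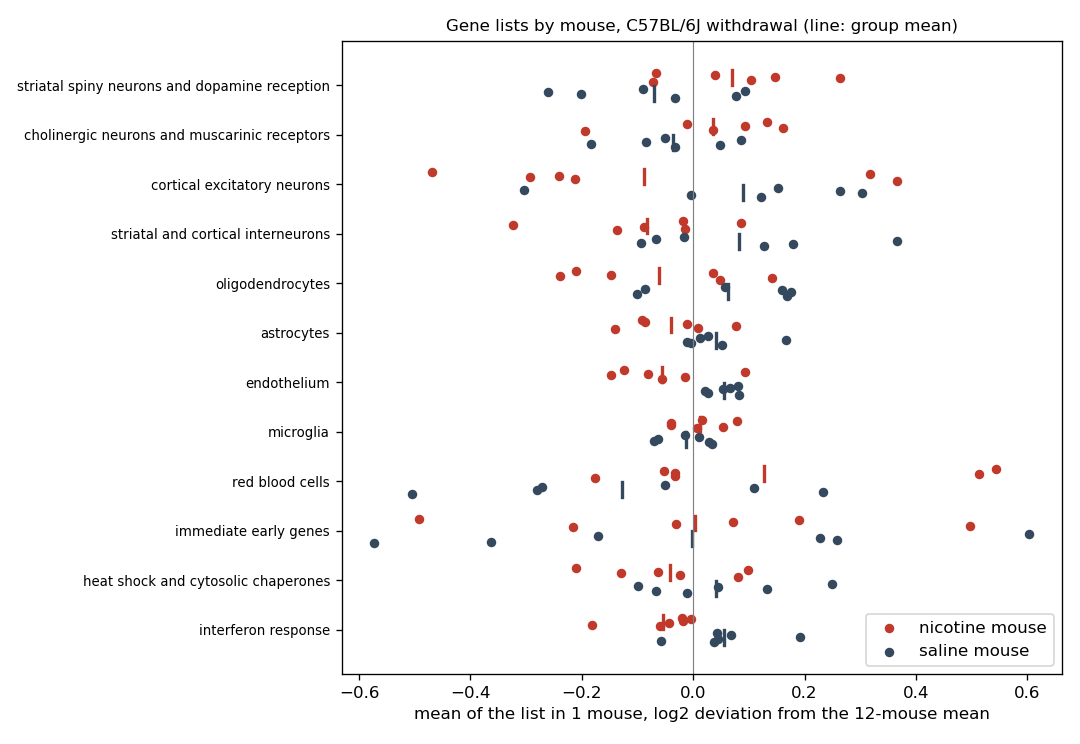
Mean of 12 gene lists in each mouse (horizontal axis, log2 deviation from the mean of the 12 mice); points are mice (6 nicotine, 6 saline) and short lines are group means. The groups overlap in all 12 lists, including the cortical list, where nicotine mice span -0.47 to 0.37 and saline mice -0.30 to 0.30. In the endothelium list the overlap rests on nicotine mouse 2 alone, and in the interferon list on saline mouse 5 alone.

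Activity and stress genes varied more between mice of a group than between groups. The 15 tested immediate early genes had a median of 0.0017, 8 higher and 7 lower. Fos had values of 6.72, 7.57, 7.61, 7.46, 8.57 and 7.06 in nicotine mice 1 to 6 and 8.69, 6.94, 7.93, 7.77, 7.02 and 6.72 in saline mice 1 to 6. Nicotine mouse 5 and saline mouse 1 were the highest, and nicotine mouse 1 and saline mouse 6 the lowest. The difference was -0.01 (SE 0.28), and Arc, a synaptic gene induced with Fos, stood at 0.03 (SE 0.36) with the same mice at the ends. Npas4, a transcription factor induced by calcium entry, stood at 9.45 ± 0.62 in nicotine mice and 9.08 ± 0.98 in saline mice, a difference of 0.37 (SE 0.40). Leaving out saline mouse 6 gave 0.11, leaving out nicotine mouse 5 gave 0.13, and leaving out saline mouse 1 gave 0.66. Nr4a1, named after its values were seen, stood at -0.09 (SE 0.44). The mean of the list ran from -0.49 to 0.50 in nicotine mice and from -0.57 to 0.60 in saline mice. Its median was 0.13 without saline mouse 1 and -0.11 without saline mouse 6.

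**Figure D4:**
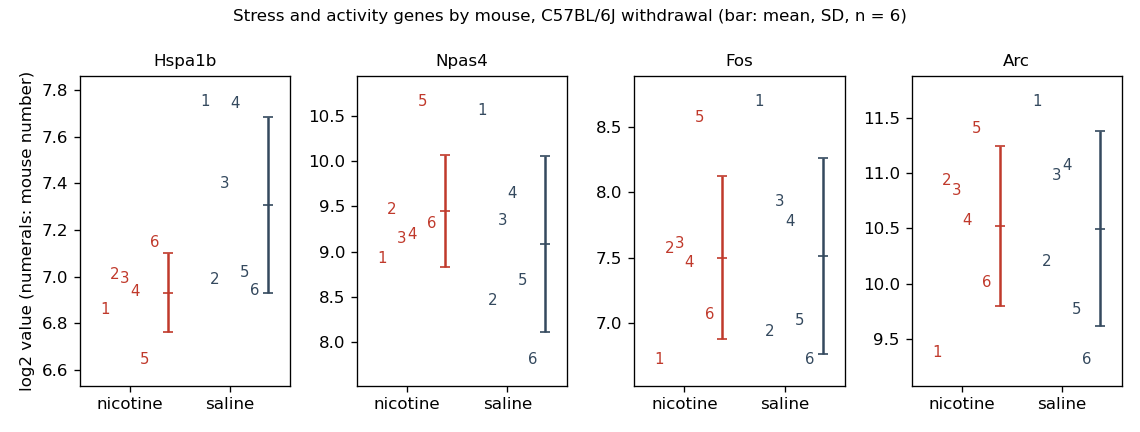
Log2 values of Hspa1b, Npas4, Fos and Arc (vertical axes, each with its own range) in the nicotine and saline mice, each mouse drawn as its number, with bars for mean and SD (n = 6). Saline mouse 1 is the highest saline mouse in all 4 panels, and saline mice 1, 3 and 4 are the highest 3 of the saline group in each. Nicotine mouse 5 is the lowest nicotine mouse for Hspa1b and the highest for Npas4 and Fos.

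Hspa1b, a stress-inducible cytosolic chaperone of the HSP70 family, was the heat shock gene with the lowest p. It had values of 6.86, 7.01, 6.99, 6.94, 6.64 and 7.14 in nicotine mice 1 to 6 and 7.75, 6.99, 7.40, 7.74, 7.02 and 6.94 in saline mice 1 to 6. Saline mice 1, 3 and 4 were high, the same 3 that were highest of the saline group in Fos, Arc and Npas4. The other 3 saline mice lay within the nicotine range. The nicotine group did not follow this pattern: nicotine mouse 5, its highest in Fos and Npas4, was the lowest of all mice for Hspa1b. The difference, -0.38 (SE 0.12, limma unadjusted p = 0.00336, adjusted p = 0.9999), was -0.29 without saline mouse 1. Over all fits without 1 mouse it ran from -0.45 to -0.29. The neighbouring paralog Hspa1a, below the filter and named after its values were seen, had 5.36 ± 0.11 in nicotine mice and 5.60 ± 0.49 in saline mice (SD, n = 6 each). The same 3 saline mice were its highest, at 6.28, 5.79 and 6.00. The 2 genes have nearly the same sequence, so their values may share signal. Of the 10 tested heat shock and chaperone genes 9 were lower, with a median of -0.07. This median was -0.02 without saline mouse 1, and ran from -0.09 to -0.02 over all fits without 1 mouse.

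The promoters of the pair are shown because both genes were highest in the same 3 saline mice. Each spans 250 bases before to 50 after the start of the gene, on the minus strand of mouse GRCm38.p6, from RefSeq. Hspa1b lies at chr17:34959189-34959488 and Hspa1a at chr17:34972107-34972406. Capitals mark the heat shock motif GAANNTTC, an inverted repeat that reads the same on both strands.
Hspa1b: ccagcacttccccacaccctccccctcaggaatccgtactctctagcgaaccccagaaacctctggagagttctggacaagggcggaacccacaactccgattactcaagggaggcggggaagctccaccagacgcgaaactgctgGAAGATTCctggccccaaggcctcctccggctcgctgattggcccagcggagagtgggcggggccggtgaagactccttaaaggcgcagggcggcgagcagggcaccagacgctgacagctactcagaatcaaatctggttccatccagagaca
Hspa1a: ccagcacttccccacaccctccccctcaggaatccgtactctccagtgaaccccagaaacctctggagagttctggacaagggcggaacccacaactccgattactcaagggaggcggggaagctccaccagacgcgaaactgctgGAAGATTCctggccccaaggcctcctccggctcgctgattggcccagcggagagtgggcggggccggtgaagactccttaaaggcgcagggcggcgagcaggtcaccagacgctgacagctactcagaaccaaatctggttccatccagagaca
The promoters are identical at 296 of 300 positions and each holds 1 match, starting at position 147. The motif occurs in 2149 of 27025 mouse promoters of this length (7.95%). A match describes the letters in this window and not the binding of a factor.

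Genes of hormonal and metabolic stress gave small differences. Of 16 tested glucocorticoid-responsive genes 4 were higher and 12 lower, with a median of -0.04. Tsc22d3, which glucocorticoids induce, stood at -0.09 (SE 0.06), and Fkbp5, a chaperone of the glucocorticoid receptor that the hormone also induces, at 0.08 (SE 0.06). Cholesterol synthesis genes were lower in 15 of 16, with a median of -0.06, the range reaching from -0.20 for Idi1 to 0.03. Antioxidant genes had a median of -0.02. Among them Nqo1, a quinone reductase and target of the factor NRF2, ranged from 6.33 to 6.85 in nicotine mice and from 6.82 to 7.11 in saline mice, a difference of -0.30 (SE 0.10, limma unadjusted p = 0.00464). No nicotine mouse reached the saline mean of Nqo1, a gene named for its low p in this list, so this too follows largely from the choice. Nuclear genes of oxidative phosphorylation had a median of 0.01, 26 higher and 17 lower, with Ndufs6, a subunit of complex I, at -0.15 (SE 0.07). Oligodendrocyte precursor genes had a median of -0.04 (3 higher, 6 lower), inflammation genes -0.03 (2 higher, 4 lower) and the 3 tested opioid genes 0.0074 (2 higher, 1 lower). Of the choroid plexus list 2 of 7 members with per-array values could be tested, Clic6 at 0.21 (SE 0.17) and Sostdc1 at 0.0016 (SE 0.08). The other 18 lists with at least 3 tested genes had medians from -0.05 to 0.04, with 0 genes called.

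The differences were set beside those of mice still receiving nicotine and of the other strain, which have saline groups of their own. No gene passed the limma test of withdrawal against chronic differences in C57BL/6J (0 of 9589, 0.0%, lowest adjusted p = 0.9989), and 239 had an unadjusted p under 0.05 (2.49%). No gene passed the test of DBA/2J against C57BL/6J withdrawal either (0.0%, lowest adjusted p = 0.603), where 677 had an unadjusted p under 0.05 (7.06%). Across the 9589 genes the C57BL/6J withdrawal difference correlated with the chronic one at r = 0.119 (55.5% of genes with the same sign). With DBA/2J withdrawal it correlated at r = -0.341 (39.2% with the same sign). In those 2 comparisons themselves 4.68% (C57BL/6J chronic) and 5.44% (DBA/2J withdrawal) of genes had an unadjusted p under 0.05, and 0 passed. The correlations are descriptions across genes, which are not independent replicates and share the mice and their tissue content.

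Cell type lists showed how differently the comparisons lay. The cortical list had a median of -0.19 in C57BL/6J withdrawal, 0.03 in C57BL/6J chronic and 0.15 in DBA/2J withdrawal. In the last, 10 of 10 members were higher. Over all 9589 genes tested, 3303 were higher in C57BL/6J chronic (median -0.0289) and 5959 in DBA/2J withdrawal (median 0.0246). Counts of members in those comparisons are to be read beside these shares. Endothelial genes had -0.09, -0.09 and 0.11 in that order, and interferon genes -0.09, 0.03 and 0.08. Red cell genes had 0.25 in C57BL/6J withdrawal but -0.40 in C57BL/6J chronic and -0.28 in DBA/2J withdrawal, with 4 of 4 members lower in each of the latter. The spiny list had 0.15, -0.0054 and 0.07. For Hspa1b the values were -0.38, 0.06 and 0.03. The strain difference of Hspa1b was 0.40, DBA/2J minus C57BL/6J (limma adjusted p = 0.6876). Nqo1 stood at -0.30 in C57BL/6J withdrawal, -0.06 in chronic and 0.22 in DBA/2J withdrawal, with a strain difference of 0.51 (limma unadjusted p = 0.000909, adjusted p = 0.6542). Macroh2a3 gave -0.27, -0.08 and 0.15, with a strain difference of 0.42 (limma unadjusted p = 0.000252, adjusted p = 0.603). Hspa1b, Nqo1 and Macroh2a3 were named for their low p in C57BL/6J withdrawal, and that same difference enters the strain difference. Their low strain p therefore follows in part from the choice. None of these differences between strains or phases passed.

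**Figure D5:**
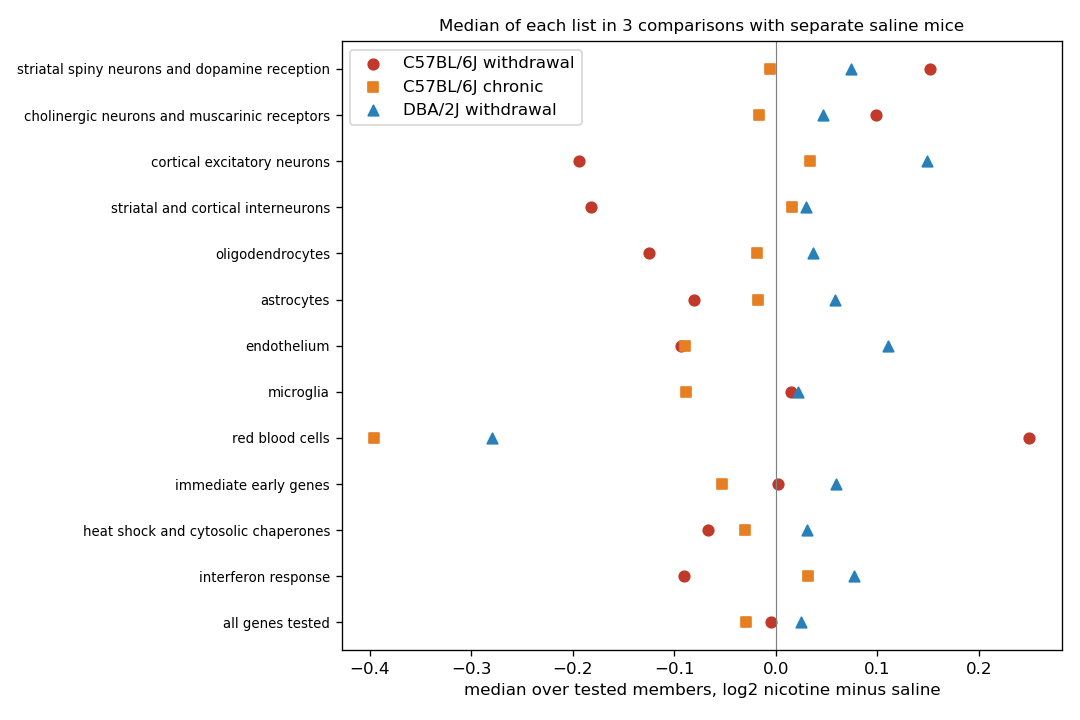
Median log2 difference, nicotine minus saline (horizontal axis), of 12 gene lists and of all genes tested, for C57BL/6J withdrawal (circles), C57BL/6J chronic (squares) and DBA/2J withdrawal (triangles). The cortical list stands at -0.19, 0.03 and 0.15 and the red cell list at 0.25, -0.40 and -0.28.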

How the data were processed

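The deposited per-array table holds log2 values that the authors computed and scaled between arrays. Summarisation, scaling and probe filter are unstated in the labels and headers. It has 48088 features (6732 controls) with values from 2.58 to 19.9. A second deposited table gives a standardised score (S-score) that, per the file headers, the authors computed for each nicotine mouse against its saline group. It supplied gene names, updated through RefSeq (GRCm38.p6). Of its 25822 genes, 16284 have per-array values. The other 9538, nearly all on chromosomes 1 to 6, were read by S-score.

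Genes with 1 symbol, 1 feature each (the highest mean), were kept if above the 50th percentile of non-control features on at least 5 arrays, which left 9589 and removed 6695. All 46 arrays were fitted with limma 3.58.1 in R 4.3.3 (8 groups, two-sided tests on 38 residual plus 4.14 prior degrees of freedom, Benjamini-Hochberg, threshold 0.05). P-values measure the spread between mice, 1 array each, and the number of arrays limits the precision. S-scores were fitted likewise, with saline mice assumed to vary like nicotine mice. In simulated data for this comparison (9589 genes, 200 changed), 50.4% of 1.19-fold, 92.5% of 1.41-fold and 99.7% of 2-fold changes were recovered. All sizes were mixed in the same simulated sets and noise was independent between genes, so these shares may not hold for the real arrays. Plots used matplotlib 3.10.9 in Python 3.11.15. Nicotine mice numbered 22 with S-scores, and 22 of 22 correlated best with their own column.

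Of 44 gene lists, 40 had at least 3 tested genes. Lists are described by counts and medians without a test. The comparison, the lists and the named genes were chosen with earlier results of these data known, and the 22 lists from which members were named after list values were seen. Named were the 10 genes with the smallest p in each direction (predicted genes left out), 4 members of each described list whose median departed from that of all genes by 0.1 or more, 2 of the other described lists, 18 nicotine target genes, and 5 genes per direction by S-score alone. Some of these are given only within counts and ranges. Alternatives were other filters, scalings and weights, covariates, a block for the mouse number, and fits without each mouse in turn.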

Additional observations from a re-analysis of the deposited data

Results flagged for a closer look

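In 6 of 204 groups of 6 mice examined, 1 mouse stood apart from the other 5 by Dixon's criterion, and chance alone flags about 1 group in 20. Npas4 was 10.7 in nicotine mouse 5 against 8.92 to 9.46 in the others. Olfr1321 was 6.27 in nicotine mouse 2 against 6.56 to 6.71. Stip1, a co-chaperone, was 13.7 in saline mouse 1 against 13.5 in the others. Mlc1, an astrocyte membrane protein, was 12.1 in saline mouse 3 against 11.7 to 11.8, and the mean of the astrocyte list was 0.17 in that mouse against -0.01 to 0.05. The mean of the interferon list was -0.18 in nicotine mouse 5 against -0.06 to -0.0044.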

How the results depend on the processing

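The count of genes at adjusted p under 0.05 was 0 under every limma alternative run on the array values. At unadjusted p under 0.05 the 286 genes became 520 with quantile normalization, 450 with cyclic loess, and 202 to 398 without 1 mouse. The count was 505 (304 higher) with nicotine mouse 1 and saline mouse 6 left out together, a choice made after seeing the data. All of these fits used 9589 genes. Without a filter there were 572 of 16284 genes, and above the 75th percentile 126 of a smaller number tested. The phase difference had 445 without a filter and 102 above the 75th percentile. The strain difference had 443 above the 75th percentile, 1269 with quantile normalization and 1040 with cyclic loess. Counts under another filter rest on another number of genes tested and do not compare directly with the main counts. When the variation among saline mice was ignored, a test of the S-scores gave 1 gene passing and 3000 at unadjusted p under 0.05, and the 759 of the main test became 595 to 1291 without 1 mouse (1291 without nicotine mouse 2). With a replicate block (paired by mouse number) 0 genes passed and 258 had an unadjusted p under 0.05 (198 and 672 for the phase and strain differences). Same-numbered mice deviated together at r from -0.17 to 0.20, and 1 of 6 correlated best with its own number, so the numbers were not taken to pair mice.

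The genes that changed sign all lay near 0 or varied widely. With both lists as covariates Lynx1 stood at 0.022, Pvalb at 0.0067, Drd3 at -0.036 (-0.0079 with the cortical list alone), Oprm1 at -0.055 (-0.020) and Fos at 0.072 (0.050, and 0.039 with array weights). Sostdc1 stood at -0.0087 with arrays centred on their median, -0.010 with quantile normalization, -0.012 with cyclic loess, -0.0074 with array weights and -0.018 without nicotine mouse 1 and saline mouse 6. Under the same scalings Oprm1 stood at -0.0030, -0.012 and -0.0081, and at -0.048 without those mice. Arc stood at -0.014 with quantile normalization. Without 1 mouse, Pnoc ran from -0.094 to 0.0033, Sostdc1 from -0.028 to 0.048, Calb2 from -0.34 to 0.0077, Oprm1 from -0.023 to 0.044, Fos from -0.23 to 0.22 and Arc from -0.21 to 0.26. The cause of these sign changes was not tested. Genes below the filter carry too little signal to be ranked here.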
